A study of Mus musculus with 12 samples.

Results

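RNA-seq of CD115- common dendritic cell progenitors (CDPs) and of bone marrow (BM) pDCs that both lacked HDAC3 was compared, to ask which features of the pDC the remaining HDAC3-deficient pDCs still held above progenitors without the enzyme. The comparison takes the 2 HDAC3-deficient CDP libraries and the 2 HDAC3-deficient BM pDC libraries, 4 of the 12 libraries of the series, chosen by cell type and genotype alone. All mice were C57BL/6 and carried floxed *Hdac3* alleles (Hdac3 fl/fl). The HDAC3-deficient animals also carried CreERT2, a Cre recombinase that tamoxifen switches on, placed at the Rosa26 locus and therefore not restricted to DCs. Controls were Hdac3 fl/fl mice without CreERT2. Both genotypes received tamoxifen for 5 days, and cells were sorted 7 days after the last dose. The 2 control CDP and 2 control BM pDC libraries were used only where a gain from CDP to pDC was set against the same gain in control cells. No age is given in the labels, and no source used here states that libraries of a group came from separate mice, so the p-values below reflect only how far these samples spread, and that spread may be technical.

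pDCs are the DC type specialised for sensing nucleic acids of viruses through endosomal Toll-like receptors and for secreting large amounts of type I interferon. They arise from BM progenitors, among them the CDP, under a transcription factor programme centred on the E protein TCF4, with SPIB, IRF8, RUNX2 and BCL11A. Conventional DCs (cDCs), which present antigen to T cells, arise from the same progenitors under factors such as ID2, BATF3 and ZBTB46, and ID2 restrains E proteins. HDAC3 is a histone deacetylase that works within the NCoR/SMRT corepressor complexes.

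For each gene, a level means FPKM rescaled so that the 14473 genes shared by the CDP and pDC tables summed to the same total of 1000000 in every library. A gain is the mean of log2(level + 0.5) in pDCs minus that in CDPs, so 1 unit is a doubling and a negative gain means a higher level in CDPs. The 2 cell types stand in tables that were normalized separately, were lysed in different reagents and may differ in library protocol, so cell type, table and lysis cannot be told apart, and no p-value was computed between CDPs and pDCs. With 2 libraries against 2 an exact permutation test could not go below p = 0.333. A gene was instead called higher in one cell type where its nearest libraries lay at least 4-fold apart on the log2(level + 0.5) scale, among 11289 genes at a level of at least 1 in both libraries of a cell type. Libraries are given in the order 1, 2 throughout.

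HDAC3-deficient CDP library 2 stood apart. Only 11288 genes were above 0 in it, compared with 13684 to 15173 in the remaining CDP libraries, and its log2 levels correlated with HDAC3-deficient CDP library 1 at r = 0.889 across genes, against 0.981 between the control CDP libraries, 0.991 between the HDAC3-deficient pDC libraries and 0.996 between the control pDC libraries. Counts are therefore also given without it. *Hdac3* itself was at 21.4 and 1.74 in HDAC3-deficient CDPs, 34.5 and 33.4 in HDAC3-deficient pDCs, 104 and 73.6 in control CDPs, and 83.7 and 80.2 in control pDCs. All 4 HDAC3-deficient libraries lay below all 4 controls. The reading in pDCs fell by 1.15 on the log2 scale (SE 0.09, edgeR quasi-likelihood test, adjusted p = 0.00011). Only exon 3 is floxed, and how far the remaining reading came from recombined or from unrecombined cells was not tested.

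The sequences just upstream of the 3 genes with the widest gap between HDAC3-deficient pDCs and CDPs among the pDC factor and pDC-enriched genes are printed because these genes carry the clearest pDC-over-CDP difference of those lists. Each line gives the 250 bases before the annotated start on the gene's strand, 5′ to 3′, from the RefSeq promoter table of GRCm38.p6, at chr7:44225110-44225359 (Klk1, plus strand), chr2:164857709-164857958 (Pltp, minus strand) and chr9:123766961-123767210 (Ccr9, plus strand). Capitals mark the E-box CAGGTG, a form that E proteins such as TCF4 are known to bind, and GAGGAA, a core of the sites that the ETS factors PU.1 and SPIB are known to bind, each searched on both strands. The motifs can overlap by a base, and no window printed here holds both.
Klk1: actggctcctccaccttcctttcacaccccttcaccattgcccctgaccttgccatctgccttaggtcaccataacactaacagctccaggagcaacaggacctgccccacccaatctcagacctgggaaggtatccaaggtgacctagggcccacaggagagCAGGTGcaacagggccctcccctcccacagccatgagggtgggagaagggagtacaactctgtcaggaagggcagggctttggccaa
Pltp: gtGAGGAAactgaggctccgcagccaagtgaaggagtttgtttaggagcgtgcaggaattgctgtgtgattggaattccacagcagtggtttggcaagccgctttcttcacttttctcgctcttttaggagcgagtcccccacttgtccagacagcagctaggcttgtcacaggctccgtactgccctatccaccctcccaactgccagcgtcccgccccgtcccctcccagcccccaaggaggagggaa
Ccr9: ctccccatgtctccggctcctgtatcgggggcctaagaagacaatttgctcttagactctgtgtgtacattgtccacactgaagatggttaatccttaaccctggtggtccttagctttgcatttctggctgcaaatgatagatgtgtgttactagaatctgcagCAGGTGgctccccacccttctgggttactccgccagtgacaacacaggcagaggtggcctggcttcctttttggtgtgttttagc
CAGGTG began 87 bases before the start of *Klk1* and 85 bases before that of *Ccr9*, which positions -87 and -85 denote, and GAGGAA lay at -248 in *Pltp*. Of the 40 genes on the lists of pDC factors and pDC-enriched genes, 32 had a window in the table. CAGGTG was found in 8 of them (25%), against 19.4% of all genes in the table, 21.1% of genes called higher in HDAC3-deficient pDCs and 17.0% of those called higher in CDPs. GAGGAA was found in 15 of the 32 (46.9%), against 25.9% of all genes, 30.3% of those called higher in pDCs and 26.9% of those called higher in CDPs. These shares count a match in any window of a gene, and the 32 list genes had 50 windows, against 32851 for 27025 genes. Per window, CAGGTG was in 16% of the list windows and 17.2% of all windows, so it was not more frequent in the lists. GAGGAA was in 42% and 23.3%. A match describes the letters in the window and is neither a binding site nor a cause.

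In all, 1146 genes (10.2% of those tested) were called higher in HDAC3-deficient pDCs and 549 (4.86%) higher in HDAC3-deficient CDPs, so pDCs took 67.6% of the calls. That split depended on the scaling, and pDCs took 53.3% of the calls with FPKM as deposited and 57.3% after quantile normalization, with a median gain over all genes of 0.15, -0.14 and -0.05 in the same order. No call changed direction under these scalings. Without HDAC3-deficient CDP library 2 the counts were 1469 and 821, and without HDAC3-deficient CDP library 1 they were 2363 and 1207. In control cells the same rule called 1103 genes (9.6% of 11495) higher in pDCs and 667 (5.8%) higher in CDPs. The calls of each gene list below are to be read beside these shares of all genes.

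Whether a gain from CDP to pDC differed between genotypes was tested with limma over all 8 CDP and pDC libraries, where an offset between the tables cancels. Of 11732 genes, the gain was larger in HDAC3-deficient cells for 165 (1.41%) and smaller for 12 (0.102%), and 2146 had an unadjusted p under 0.05. These calls hold little margin with 2 libraries a group, and the following applies to each gene named with this test. Leaving out control CDP library 1 or 2, control pDC library 1 or 2, or HDAC3-deficient pDC library 2 left 0 calls in either direction, with 1119 to 1816 genes at an unadjusted p under 0.05, and 3 larger gains were called without HDAC3-deficient pDC library 1. Leaving out HDAC3-deficient CDP library 1 or 2 raised the number of calls, and all 177 original calls kept their sign. Either omission takes the spread of that group out of the estimate, so these fits are no check on the calls. Levels in pDCs were also compared between genotypes with edgeR on counts, which called 2753 genes (21.6% of 12716) higher and 2858 (22.5%) lower in HDAC3-deficient pDCs. Without control pDC library 1 these counts were 1531 and 1395, and without control pDC library 2 they were 1440 and 1310.

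**Figure D1:**
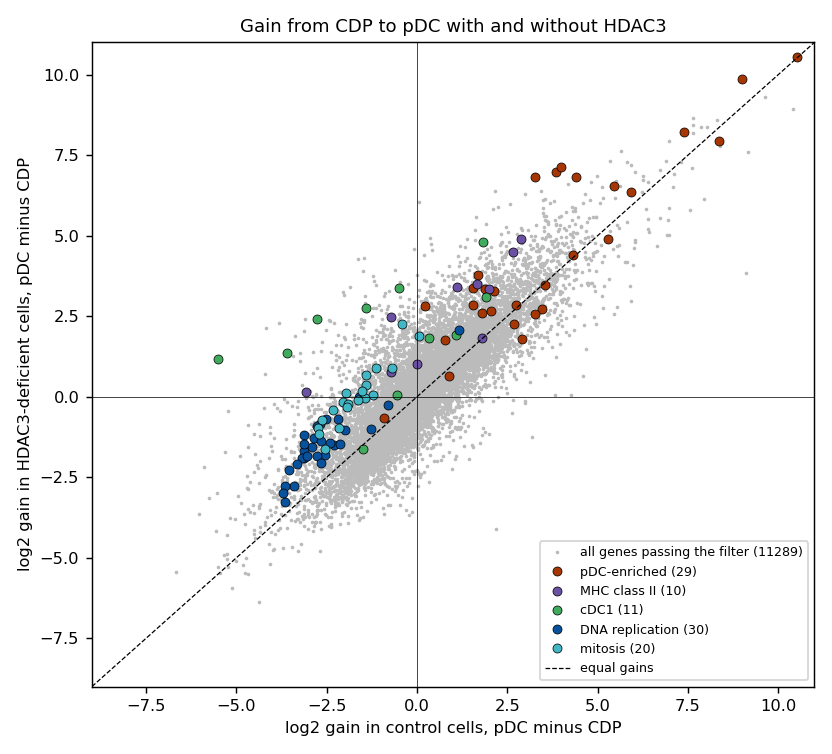
Gain from CDP to pDC of each gene in control cells (x axis) and in HDAC3-deficient cells (y axis), both on the log2(level + 0.5) scale, with 5 gene lists coloured and a dashed line where the gains are equal. The pDC-enriched genes lie in the upper right, except *Plac8* in the lower left, while MHC class II, cDC1, DNA replication and mitosis genes lie mostly above the dashed line.

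The transcription factors of the pDC programme had higher levels in HDAC3-deficient pDCs than in the progenitors. Of 10, 4 were called higher in pDCs, against 10.2% of all genes, and 0 in CDPs. Their median gain was 2.06 against 0.15 over all genes. *Spib*, an ETS factor needed by pDCs, had the widest difference. It was at 13.7 and 6.67 in HDAC3-deficient CDPs and at 775 and 683 in HDAC3-deficient pDCs, and even the nearest libraries were 49.7-fold apart. *Irf7*, which drives interferon genes after Toll-like receptor signalling, measured 44.4 and 31.6 in CDPs and 453 and 336 in pDCs. *Runx2*, a factor in pDC development and BM exit, measured 104 and 67.6 against 639 and 595. Neither gene overlapped between the cell types, with nearest libraries 7.55-fold and 5.73-fold apart. *Cbfa2t3*, which encodes the ETO-family corepressor MTG16, measured 33.3 and 17.1 in CDPs and 172 and 183 in pDCs.

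The founding factor of the lineage, *Tcf4*, measured 58.3 and 93.2 in HDAC3-deficient CDPs and 391 and 302 in HDAC3-deficient pDCs, a gain of 2.21. Its libraries did not overlap but missed the 4-fold rule, and it was called higher in pDCs without CDP library 2. *Irf8* was already high in progenitors, at 1530 and 594, and higher in pDCs, at 3624 and 3533. *Bcl11a*, an activator of *Tcf4*, measured 99.9 and 106 in CDPs and 324 and 352 in pDCs, and *Zeb2* measured 21.3 and 19.4 against 72.2 and 58.9. Both were higher in both pDC libraries, by gains of 1.71 and 1.66, and neither reached the rule. The smallest gains of the list were those of *Ikzf1* (0.76) and *Tsc22d1* (1.33).

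These factors were then set beside control pDCs. By edgeR, 1 of the 10 factors rose and 4 fell, where 21.6% of all genes were called higher and 22.5% lower. *Cbfa2t3* rose by 0.83 on the log2 scale (SE 0.11, adjusted p = 0.0012), and *Tcf4* (adjusted p = 0.0079), *Irf7* (0.016), *Zeb2* (0.0044) and *Tsc22d1* (0.00061) fell by 0.62, 0.46, 0.51 and 0.90. The study named *Tcf4* from these samples, so its direction is not independent evidence. *Spib* at -0.25 (adjusted p = 0.056) and *Irf8* at -0.06 (adjusted p = 0.63) did not pass the test. The gain from CDP to pDC of 0 of the 10 factors differed between HDAC3-deficient and control cells in limma's interaction test, with 2 at an unadjusted p under 0.05.

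Genes enriched in pDCs were mostly far above the progenitor level. Of 30, 29 passed the level filter, and 24 were called higher in HDAC3-deficient pDCs, against 10.2% of all genes, and 0 higher in CDPs. The number called higher in pDCs was again 24 without CDP library 2. Their median gain was 3.38. *Ccr9*, the chemokine receptor of mature pDCs, measured 1.01 and 0.879 in HDAC3-deficient CDPs and 442 and 418 in HDAC3-deficient pDCs, 414-fold apart at the nearest libraries. *Klk1*, a kallikrein protease gene, was listed at 0 in both HDAC3-deficient CDP libraries and measured 921 and 612 in pDCs. *Pltp*, which encodes a phospholipid transfer protein, measured 0.337 and 0 in CDPs and 718 and 506 in pDCs. These 3 genes, whose upstream sequences are printed above, were at or near 0 in the progenitor libraries and at 418 or more in every HDAC3-deficient pDC library. *Klk1* has near-identical relatives in the kallikrein cluster, such as *Klk1b27* (0 and 0 in CDPs, 180 and 164 in pDCs), and reads may be split between them.

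Receptors and lectins of the pDC surface followed the same order. *Cd209d*, a C-type lectin gene, measured 0.159 and 0 in HDAC3-deficient CDPs and 174 and 112 in HDAC3-deficient pDCs, and its relative *Cd209a* was listed at 0 in both CDP libraries and measured 78.2 and 39.3 in pDCs. *Havcr1*, which encodes the phosphatidylserine receptor TIM-1, measured 0.39 and 0 against 102 and 69.4. *Lag3*, an inhibitory receptor gene, measured 8.93 and 0 against 264 and 223. No pDC library of these genes overlapped with a CDP library. *Ly6d*, a surface protein that marks lymphoid-biased pDC progenitors, was at 55.4 and 67.4 in CDPs and 681 and 584 in pDCs. *Ly6c2* was called as well, at 224 and 50.4 against 1193 and 1033, whereas its near-identical neighbour *Ly6c1*, at 6.48 and 1.18 against 25.2 and 22.0, was not, and how reads were divided between them is uncertain.

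Metabolic and intracellular genes of the list had the same order. *Upb1*, which encodes a pyrimidine-degrading enzyme, measured 11.5 and 17.1 in HDAC3-deficient CDPs and 206 and 194 in HDAC3-deficient pDCs. *Rnase6*, a ribonuclease gene, measured 128 and 105 against 1213 and 1038, and *Atp1b1*, a subunit gene of the sodium pump, 0.974 and 0 against 168 and 86.3. In all of them both pDC libraries lay well above both CDP libraries. The members that passed the filter without a call were *Clec12a* (264 and 334 in CDPs, 504 and 425 in pDCs), *Cox6a2* (79.1 and 71.3 against 310 and 217), *Ly6c1*, *Tex2* (54.5 and 67.6 against 228 and 185) and *Plac8*. *Plac8* was the one member with a negative gain, at 10240 and 8840 in CDPs and 5798 and 6333 in pDCs. *Cadm1*, a cell adhesion gene, failed the filter in both cell types, at 0.283 and 0 in CDPs and 2.59 and 0.759 in pDCs, against 21.2 and 18.1 in control pDCs.

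**Figure D2:**
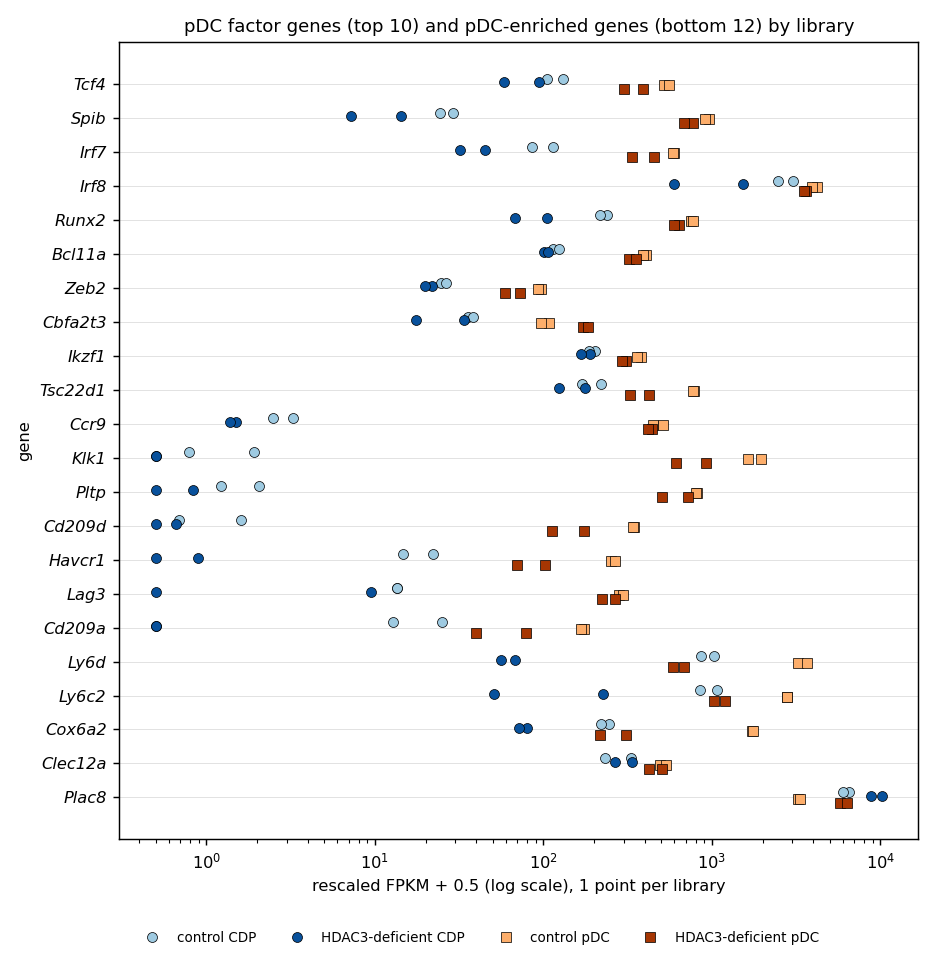
Level + 0.5 of each library on a log axis (x) for 10 pDC factor genes and 12 pDC-enriched genes (y), with circles for CDPs, squares for pDCs, dark fill for HDAC3-deficient and light fill for control libraries. For *Ccr9*, *Klk1*, *Pltp* and *Cd209d* the squares of both genotypes lie far to the right of every circle, while *Plac8* has its squares to the left.

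The same genes were mostly below their control pDC level. Of the 30 pDC-enriched genes, 21 fell and 2 rose in HDAC3-deficient pDCs (edgeR, adjusted p under 0.05), where 22.5% of all genes fell and 21.6% rose. *Cox6a2*, a muscle-type cytochrome oxidase subunit gene expressed in pDCs, fell by 2.61 on the log2 scale (SE 0.14, adjusted p = 3.7e-05) from 1727 and 1745 in controls, and *Ly6d* fell by 2.33 (SE 0.11, adjusted p = 3.3e-05) from 3254 and 3650. *Klk1* fell by 1.12 (adjusted p = 0.0017). *Ccr9*, by contrast, was at 449 and 515 in control pDCs, a difference of -0.05 that did not pass (adjusted p = 0.74), and *Lag3* (-0.12, adjusted p = 0.31) and *Lifr* (-0.16, adjusted p = 0.18) did not pass either. The study picked *Ly6d*, *Ly6c1*, *Ly6c2*, *Cox6a2* and *Cd209a* on these samples, so their direction is not independent evidence.

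Some of these genes also stood lower in HDAC3-deficient than in control CDPs. *Ly6d* measured 1034 and 856 in control CDPs against 55.4 and 67.4 in HDAC3-deficient CDPs, and its gain was 3.36 without HDAC3 and 1.87 in controls, a difference of 1.48 (SE 0.26) that missed the threshold (limma interaction, adjusted p = 0.0519). The gain was larger in HDAC3-deficient cells for 3 of the 30 genes, *Cd209a* by 3.55 (SE 0.61, adjusted p = 0.0492), *Havcr1* by 3.14 (SE 0.52, adjusted p = 0.0454) and *Upb1* by 2.10 (SE 0.31, adjusted p = 0.0349), and smaller for 0, with 15 of 30 at an unadjusted p under 0.05. For *Cd209a* and *Havcr1* the CDP libraries without HDAC3 were listed at or near 0, so their gain depends on the 0.5 added before taking logs. Without HDAC3-deficient CDP library 2 its group holds 1 library, and the number of calls in that fit is no guide.

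The surface genes used to sort the cells are no finding between the groups. *Siglech* measured 45.7 and 27.9 in HDAC3-deficient CDPs and 2090 and 1802 in pDCs, and *Bst2* measured 313 and 161 against 2729 and 2453. *Flt3*, present on both cell types, measured 590 and 406 against 304 and 351. *Kit* was at 60.8 and 31.3 against 18.8 and 20.6. Defining markers of the pDC were thus present in the pDC libraries, and *Flt3* and *Kit* in the CDP libraries. *Itgam*, which encodes CD11b and against which the pDC gate selects, ran against the gate, at 37.9 and 27.1 in HDAC3-deficient CDPs, 96.9 and 116 in HDAC3-deficient pDCs and 8.78 and 5.94 in control pDCs. *Csf1r*, which encodes CD115, was present in the CDPs sorted as CD115-, at 115 and 40.2, against 25.4 and 30.1 in pDCs.

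Of 16 genes of the endosomal Toll-like receptor pathway measured in both tables, 2 were called higher in HDAC3-deficient pDCs and 0 in CDPs, a share close to the 10.2% of all genes. The median gain was 1.12, and 4 were called without CDP library 1, CDP library 2 or HDAC3-deficient pDC library 2, and 1 with FPKM as deposited. *Tlr9*, the receptor for unmethylated CpG DNA, measured 1.03 and 0.037 in HDAC3-deficient CDPs and 119 and 89.2 in pDCs. *Tlr7*, the receptor for single-stranded RNA, measured 13.0 and 21.4 against 117 and 86.2. *Tlr9* was 86.9-fold apart at the nearest libraries, and *Tlr7* just missed the rule and was called without CDP library 2. *Pik3ap1*, an adaptor gene, was the other call, at 53.9 and 35.5 against 320 and 253. The adaptors *Myd88* (100 and 58.0 against 110 and 103) and *Irak4* (31.3 and 26.4 against 30.6 and 26.0) were near equal in the 2 cell types. Against control pDCs, *Tlr9* did not pass the test (-0.08, adjusted p = 0.59) and *Tlr7* fell by 0.55 (adjusted p = 0.0094, edgeR). The gain of 0 of the 16 genes differed between genotypes (limma), and 0 had an unadjusted p under 0.05.

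Secretory genes were not raised as a group. Of 25 endoplasmic reticulum and secretion genes, 3 were called higher in HDAC3-deficient pDCs, close to the share of all genes, and 0 in CDPs (2 without CDP library 1), and the median gain of -0.11 changed sign with quantile normalization and with totals that leave out hemoglobin and ribosomal protein genes. *Mzb1*, a chaperone cofactor of antibody-secreting cells and pDCs, measured 3.44 and 0 in HDAC3-deficient CDPs and 35.2 and 23.2 in pDCs. *Jchain*, the joining chain gene, measured 1.67 and 0 against 19.6 and 17.3. *Xbp1*, the factor of the secretory stress response, was at 122 and 117 against 357 and 332 and was not called. *Mzb1* fell by 2.21 against control pDCs (edgeR, adjusted p = 7.5e-05), where it stood at 140 and 152.

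Of 25 interferon-stimulated genes, 2 were called higher in pDCs and 1 higher in CDPs, close to the shares of all genes (10.2% and 4.86%). The median gain was 0.43. In CDPs, 3 were higher without CDP library 1 and 2 without CDP library 2 or HDAC3-deficient pDC library 1. *Stat2*, which transmits the interferon signal, measured 31.8 and 26.6 in HDAC3-deficient CDPs and 167 and 157 in pDCs. *Trim30a* measured 39.0 and 27.7 against 266 and 195. *Rtp4* ran the other way, at 27.1 and 77.8 in CDPs and 1.08 and 1.33 in pDCs. The MHC class I list had 0 of 10 genes called in either direction.

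MHC class II genes, used to present antigen to helper T cells, were mostly higher in the remaining pDCs. Of 10, 6 were called higher in HDAC3-deficient pDCs, against 10.2% of all genes, and 0 in CDPs. The median gain was 2.90 against 1.37 in controls. The 4 without a call were *H2-DMa*, *H2-DMb1*, *H2-Oa* and *H2-Ob*, with gains of 0.77, 1.02, 1.81 and 0.15. *H2-Aa* measured 68.2 and 65.3 in HDAC3-deficient CDPs and 2212 and 1842 in pDCs, 27.0-fold apart at the nearest libraries. *H2-Eb1* measured 27.7 and 22.7 against 627 and 536. *Cd74*, the invariant chain, measured 543 and 853 against 7120 and 6583. For these 3 genes the lowest pDC library was many times the highest CDP library. *Ciita*, the master regulator of the class, measured 3.92 and 1.5 against 33.3 and 28.6.

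The gains of several class II genes were larger without HDAC3 than with it. *H2-Aa* was at 354 and 300 in control CDPs and 2280 and 2557 in control pDCs, and its pDC level did not pass the test between genotypes (edgeR, -0.14, adjusted p = 0.32). The gains of 5 of the 10 genes were larger without HDAC3 (limma interaction, against 1.41% of all genes tested). These were *H2-Aa* by 2.02 (SE 0.24, adjusted p = 0.020), *H2-Ab1* by 1.84 (SE 0.22, 0.020), *H2-Eb1* by 1.86 (SE 0.26, 0.0266), *H2-DMb2* by 3.19 (SE 0.33, 0.015) and *H2-Ob* by 3.22 (SE 0.32, 0.014). The last 2, chosen after their values were seen, encode peptide-loading proteins and also rose in pDCs, *H2-DMb2* from 49.3 and 53.6 in controls to 151 and 189, and *H2-Ob* from 14.5 and 11.8 to 74.7 and 89.9.

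Of 12 lysosome genes, 4 were called higher in HDAC3-deficient pDCs, against 10.2% of all genes, and 0 in CDPs. The median gain was 0.96 against 1.27 in controls. *Ctsl*, which encodes cathepsin L, measured 7.58 and 3.46 in CDPs and 709 and 466 in pDCs, and *Ctsb*, cathepsin B, measured 190 and 121 against 2615 and 2494. *Psap*, the saposin precursor, measured 604 and 219 against 11623 and 12728. Its level exceeded that of every other lysosome gene in pDCs, on the per-length scale of FPKM.

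Genes of migration and homing had 4 of 14 members called higher in pDCs, against 10.2% of all genes, and 0 in CDPs, with a median gain of 1.82. *Cxcr4*, the receptor that retains cells in the BM, measured 62.1 and 59.2 in HDAC3-deficient CDPs and 506 and 619 in pDCs. *Cxcr3*, which guides cells to inflamed tissue, measured 1.24 and 0 against 89.7 and 84.0, and the libraries of neither gene overlapped between cell types. *Ccr7*, the receptor for migration to lymph nodes, was lower in pDCs, at 36.1 and 38.6 against 110 and 69.3 in CDPs. It stood at only 4.32 and 3.27 in control pDCs, and its loss from CDP to pDC was smaller without HDAC3 by 3.14 (SE 0.39; limma interaction, adjusted p = 0.0204).

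Several genes of the cDC1 programme lay below progenitors in control pDCs but above them in HDAC3-deficient pDCs. Of 12 cDC1 genes 11 passed the filter. Of these, 2 were called higher in pDCs, against 10.2% of all genes, and 0 in CDPs. The number higher in pDCs was 5 without CDP library 1 and 3 without CDP library 2. The median gain was 1.92 without HDAC3 against -0.55 in controls, where 3 were called higher in CDPs. The study named *Batf3*, *Id2*, *Zfp366*, *Zbtb46* and *Clec9a* from these samples, so their direction is not independent evidence. *Id2*, the E protein antagonist, measured 72.3 and 59.3 in HDAC3-deficient CDPs and 132 and 216 in HDAC3-deficient pDCs. In controls it measured 186 and 226 in CDPs and 16.2 and 16.5 in pDCs. The order of the 2 cell types was thus opposite in the 2 genotypes. The same held for *Batf3*, a cDC1 factor, at 4.69 and 6.08 in CDPs and 10.7 and 15.1 in pDCs without HDAC3 and at 42.0 and 43.1 against 0.172 and 0.849 in controls.

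*Clec9a*, a receptor for dead cells on cDC1s that pDCs also carry at a low level, was the strongest call of the list. It measured 12.8 and 17.6 in HDAC3-deficient CDPs and 459 and 414 in HDAC3-deficient pDCs, against 36.6 and 23.2 and then 99.7 and 109 in controls. *Zfp366*, which encodes DC-SCRIPT, measured 0.549 and 0 in HDAC3-deficient CDPs and 3.19 and 3.50 in pDCs. It was the lowest of the factors named here, and missed the 4-fold rule. *Zbtb46*, the cDC lineage factor, measured 1.31 and 5.82 against 19.6 and 25.2 and was called without CDP library 2 but not with it.

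The gain differed between genotypes for 4 of the 11 tested cDC1 genes (limma interaction), by 6.68 for *Batf3* (SE 0.58, adjusted p = 0.0139), 5.17 for *Zfp366* (SE 0.59, 0.0186), 4.97 for *Id2* (SE 0.37, 0.0137) and 2.99 for *Clec9a* (SE 0.37, 0.0202). All 4 were lower in both HDAC3-deficient CDP libraries than in both control CDP libraries, and higher in both HDAC3-deficient pDC libraries than in both control pDC libraries. Against control pDCs, 7 of 12 cDC1 genes rose and 1 fell (edgeR), where 21.6% of all genes rose and 22.5% fell. The list holds *Batf3*, *Id2*, *Zfp366*, *Zbtb46* and *Clec9a*, which the study named from these samples. Neither this count nor that of the 4 gains is therefore independent evidence. *Xcr1*, which marks mature cDC1s, was at 1.77 and 1.56 in HDAC3-deficient pDCs against 1.83 and 1.63 in controls (adjusted p = 0.83), and *Itgae*, which encodes CD103, was at 0.243 and 0.948.

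Among cDC2 and maturation genes, 6 of 11 were called higher in HDAC3-deficient pDCs, against 10.2% of all genes, and 0 in CDPs. That number was 3 with FPKM as deposited and 3 after quantile normalization. In controls 5 genes of the list were already called higher in pDCs and 1 higher in CDPs. The median gain was 2.27 without HDAC3 against 1.81 in controls. *Irf4*, a cDC2 factor also present in pDCs, measured 0.921 and 0 in CDPs and 26.0 and 30.6 in pDCs, and *Klf4* measured 1.04 and 7.57 against 131 and 131. *Cd83*, a maturation marker, measured 0.337 and 0.112 against 5.64 and 5.96. None of the 3 overlapped between cell types. *Cd80* and *Cd86*, costimulatory ligands for T cells, overlapped or were lower in pDCs, at 3.77 and 17.9 against 5.00 and 8.64 for *Cd80* and at 11.8 and 42.1 against 4.27 and 6.22 for *Cd86*. *Spi1*, which encodes PU.1, measured 517 and 256 in CDPs and 262 and 371 in pDCs, overlapping, whereas in controls it was at 683 and 583 against 125 and 98.4. The difference between those gains was 2.28 (SE 0.49) and missed the threshold (limma interaction, adjusted p = 0.0812), while its pDC level rose by 1.64 (edgeR, adjusted p = 0.00095). The study named *Spi1* from these samples too, so that rise is not independent evidence.

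**Figure D3:**
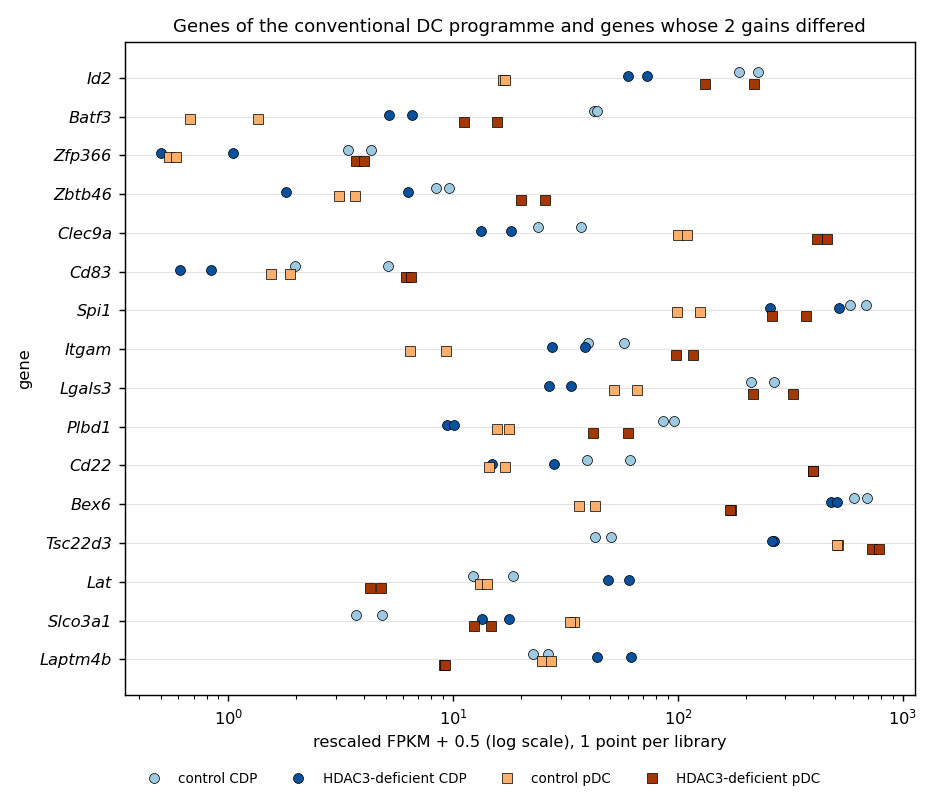
Level + 0.5 of each library on a log axis (x) for 16 genes (y) of the cDC programme or with the smallest p in the test of the gains, with circles for CDPs, squares for pDCs, dark fill for HDAC3-deficient and light fill for control libraries. For *Id2* and *Batf3* the light squares lie left of the light circles and the dark squares right of the dark circles.

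Progenitor genes were the mirror of the pDC genes. Of 19 stem and progenitor genes, 7 were called higher in HDAC3-deficient CDPs, against 4.86% of all genes, and 0 higher in pDCs. The median gain was -2.10, and 8 were called without CDP library 2. *Cd34*, the stem and progenitor sialomucin, measured 424 and 460 in CDPs and 8.96 and 10.2 in pDCs, 41.5-fold apart at the nearest libraries. *Adgrl4*, an adhesion receptor of stem cells and endothelium, measured 196 and 284 against 2.48 and 2.28, and *Egfl7* measured 298 and 258 against 8.01 and 7.90. The transcription factor genes *Mecom* (4.76 and 8.21 against 0.265 and 0.042) and *Erg* (11.4 and 8.45 against 0.841 and 1.07) were called at lower levels. *Hoxa9* (39.8 and 55.9 against 9.51 and 11.8) and *Hoxa7* (64.8 and 71.4 against 16.9 and 14.5) were higher in both CDP libraries and missed the rule.

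The gain of *Cd34*, negative in both genotypes, was 1.21 higher without HDAC3 (SE 0.23), which missed the threshold (limma interaction, adjusted p = 0.0632), and its residual level in pDCs rose by 1.48 from 3.89 and 3.54 (edgeR, adjusted p = 0.00064). *Ly6a*, which encodes Sca-1, and *Lmo2* ran against their list, *Ly6a* at 224 and 149 in CDPs and 626 and 596 in pDCs.

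Granulocyte progenitor genes were also lower in pDCs, with 3 of 16 called higher in CDPs and 1 in pDCs, against 4.86% and 10.2% of all genes. *Mpo*, myeloperoxidase, measured 3032 and 2642 in HDAC3-deficient CDPs and 234 and 156 in pDCs, and *Ctsg*, cathepsin G, measured 1468 and 1218 against 130 and 89.4. *Nkg7*, a granule protein gene, measured 498 and 748 against 23.5 and 26.8. These 3 genes stood higher in HDAC3-deficient than in both control CDP libraries, where *Mpo* was at 1015 and 1381 and *Ctsg* at 372 and 374. Without CDP library 2 the number called higher in CDPs was 8, *Ms4a3* (192 and 69.5 against 37.9 and 27.1) among them. The exception was *Cebpa*, at 7.51 and 9.61 in CDPs and 62.6 and 62.5 in pDCs, a myeloid factor that control pDCs held at 77.2 and 75.5. The study named *Mpo*, *Ctsg* and *Ms4a3* from these samples.

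DNA replication genes were lower in pDCs than in CDPs, though by less than in controls. Of 30, 5 were called higher in HDAC3-deficient CDPs (8 without CDP library 1 and 8 without CDP library 2), against 4.86% of all genes, and 0 in pDCs. The median gain was -1.48. In controls 22 were called higher in CDPs, against 5.8% of all genes, with a median gain of -2.78. *Mcm6*, a subunit of the replicative helicase, measured 1049 and 1020 in HDAC3-deficient CDPs and 158 and 143 in pDCs. *Fen1*, the flap endonuclease, measured 487 and 631 against 60.0 and 53.9, and *Chaf1b* 178 and 213 against 22.8 and 25.4. In these genes the cell types were 6.46-fold or more apart. *Pcna*, the sliding clamp, was near equal at 388 and 439 against 369 and 324.

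Of 20 mitosis genes, 0 were called in either direction between the HDAC3-deficient cell types, and 1 was called higher in pDCs without CDP library 1 or without CDP library 2. Their median gain was -0.06 against -1.77 in controls, a value near 0 whose sign changed with the scaling. *Top2a*, the mitotic topoisomerase, measured 266 and 449 in CDPs and 348 and 303 in pDCs, and *Plk1* measured 132 and 56.7 against 92.4 and 93.9. *Mki67*, the proliferation antigen, measured 35.6 and 118 against 248 and 233. For the first pair the libraries of the cell types overlapped, and for *Mki67* both pDC libraries were higher.

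In pDCs, 20 of 20 mitosis genes and 28 of 30 replication genes rose against control pDCs (edgeR), where 21.6% of all genes rose. *Mki67* rose by 1.93 (SE 0.11, edgeR adjusted p = 4.4e-05) from 73.8 and 63.4. The gain differed between genotypes for 5 mitosis genes, *Aurkb* by 1.76 (SE 0.29, adjusted p = 0.045), *Tpx2* by 1.59 (SE 0.24, 0.035), *Birc5*, *Ccna2* and *Ccnb2*, and for 3 replication genes, *Mcm5*, *Lig1* and *Tk1* (limma interaction). Over all genes tested, the gain was larger without HDAC3 for 1.41%. All 20 mitosis genes and 24 of 30 replication genes had an unadjusted p under 0.05. *Cdkn1a*, which encodes the CDK inhibitor p21, measured 278 and 266 in HDAC3-deficient CDPs and 67.1 and 83.5 in pDCs, and 119 and 109 against 7.79 and 8.15 in controls. The inhibitor genes *Cdkn1b* (3.61 and 9.14 against 148 and 139) and *Cdkn2c* (3.33 and 0 against 34.9 and 33.3) and the cyclin gene *Ccnd1* (44.3 and 23.2 against 306 and 224) were called higher in pDCs, whereas the cyclin gene *Ccnd2* (252 and 300 against 49.6 and 50.4) was called higher in CDPs.

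Ribosome biogenesis genes were lower in pDCs, with 6 of 18 called higher in CDPs, against 4.86% of all genes, and 0 in pDCs. Their median gain was -1.76. *Nop56*, a nucleolar protein gene, measured 538 and 1035 in CDPs and 111 and 97.0 in pDCs, and *Dkc1*, the pseudouridine synthase gene, 220 and 408 against 36.7 and 32.1. Neither overlapped between cell types. Of 18 housekeeping genes, 1 was called (4 without CDP library 1 and 2 without HDAC3-deficient pDC library 1), *Psmb2*, which was higher in CDPs at 824 and 1149 against 177 and 179. The median gain of that list was -0.91, and *Actb* measured 11755 and 24391 in CDPs and 4277 and 4273 in pDCs.

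Early-response genes, which are induced within minutes by stress and by cell handling, were among the widest differences. Of 17 in both tables, 10 were called higher in HDAC3-deficient pDCs, against 10.2% of all genes, and 0 in CDPs. The median gain was 3.59 against 2.30 in controls. *Fosb* measured 7.09 and 1.74 in CDPs and 1362 and 1371 in pDCs, and *Fos* measured 96.3 and 45.3 against 2137 and 2129. *Jund* was at 1.98 and 1.95 in HDAC3-deficient CDPs and 949 and 964 in HDAC3-deficient pDCs, and at 2.19 and 1.79 against 800 and 776 in controls. In controls *Fosb* was at 6.00 and 4.11 against 1402 and 1423. The differences in *Jund* and *Fosb* were thus of similar size in controls. The CDP and pDC tables, which differ in lysis and normalization, cannot be told apart from the cell types for any gene of this list. Against control pDCs, 12 of 18 early-response genes rose and 1 fell (edgeR), where 21.6% of all genes rose and 22.5% fell. The gain of *Egr1* and *Ier2* was larger without HDAC3 (limma interaction, 2 of 17, against 1.41% of all genes tested). In the other direction the heat-shock gene *Hspa1a* was higher in CDPs, at 127 and 54.9 against 14.0 and 18.5.

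The 10 genes with the largest gap toward pDCs, among genes with a mean of at least 10, were *Klk1*, *Pltp*, *Olfr1033*, *Jund*, *Rpl31-ps12*, *Klk1b27*, *Cdk2ap1*, *Ccr9*, *Klf2* and *Gm8909*. *Klf2*, a factor of quiescence and migration in lymphocytes, measured 5.76 and 2.41 in CDPs and 1768 and 1674 in pDCs. *Olfr1033*, an olfactory receptor gene, measured 0.159 and 0 against 430 and 309, and *Cdk2ap1*, a CDK2-associated protein gene, was listed at 0 in both CDP libraries and measured 151 and 177. *Rpl31-ps12*, a ribosomal protein pseudogene (6.77 and 3.50 against 2424 and 2904), and *Gm8909*, an MHC class I-like gene (0 and 0 against 160 and 132), resemble other genes closely, so their reads may be divided differently in the 2 tables. The gain of each of the 10 was positive in control cells too.

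The 10 genes with the largest gap toward CDPs were *Adgrl4*, *Gm5111*, *Cd34*, *Mia2*, *Egfl7*, *Ifitm1*, *Cep85*, *Rps6*, *Tox* and *Tspan32*. *Ifitm1*, an interferon-induced membrane protein gene of progenitors, measured 1843 and 1535 in HDAC3-deficient CDPs and 36.3 and 50.3 in pDCs, and 165 and 266 against 5.05 and 5.03 in controls. *Tox*, a factor of lymphoid development, measured 28.1 and 45.3 against 0.597 and 0.337. *Tspan32*, a tetraspanin gene, measured 167 and 141 against 4.53 and 4.99. The CDP libraries lay above every pDC library for each of them. *Rps6*, which encodes a ribosomal protein, measured 2284 and 1809 against 62.0 and 63.7, and its pseudogene *Rps6-ps4*, a row analysed only in the pDC table, stood there at 3979 and 4749 when that table was scaled on its own.

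The calls in control cells rest on libraries that the HDAC3-deficient comparison does not use. Of the 1103 genes called higher in control pDCs, 767 were also called in HDAC3-deficient cells, 69.5% of the control calls and 66.9% of the HDAC3-deficient calls, and 0 were called in the opposite direction. Over all genes tested, 10.2% were called higher in HDAC3-deficient pDCs and 4.86% higher in HDAC3-deficient CDPs. The median gain of the control-called genes was 3.07 in controls and 3.12 without HDAC3. For 97.6% of them both HDAC3-deficient pDC libraries lay above both HDAC3-deficient CDP libraries. That share was not computed over all genes, so it cannot be set against a background. Of the 667 genes called higher in control CDPs, 281 were called again, 42.1% of the control calls and 51.2% of the HDAC3-deficient calls, and 1 was called opposite. Their median gain was -2.86 in controls and -2.23 without HDAC3. For 84.4% both HDAC3-deficient CDP libraries lay above both HDAC3-deficient pDC libraries, a share not computed over all genes either. Both comparisons share the offset between the CDP and pDC tables, so part of the overlap cannot be told apart from it.

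**Figure D4:**
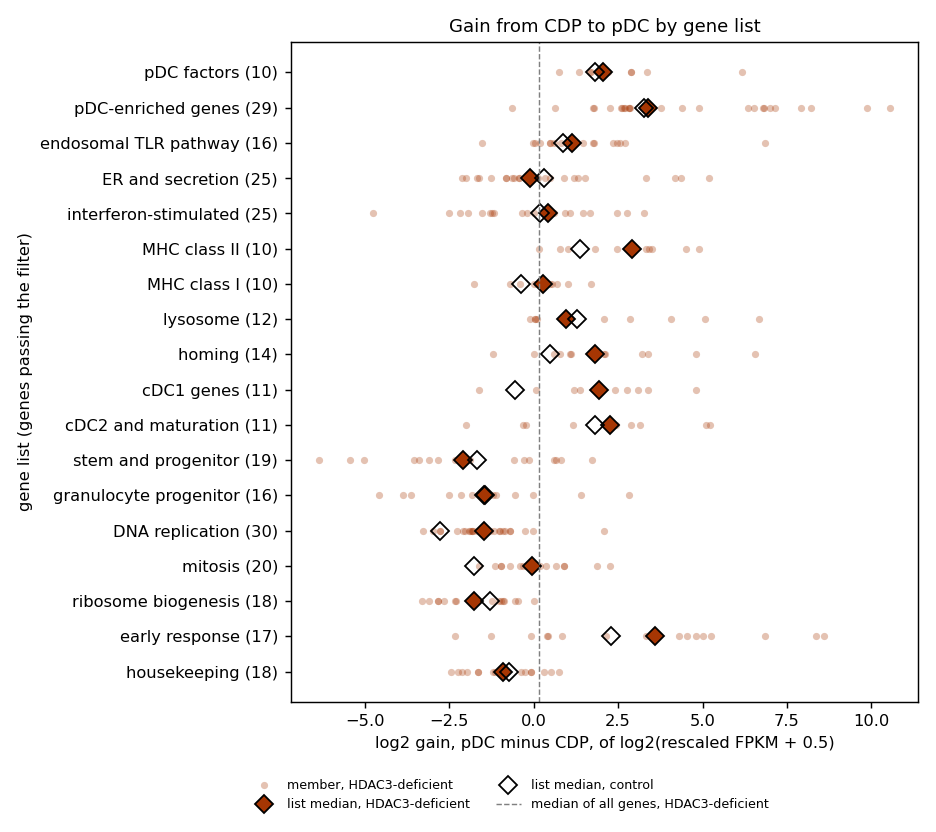
Gain from CDP to pDC on the log2(level + 0.5) scale (x) for 18 gene lists (y, with the number of genes passing the filter), showing each member in HDAC3-deficient cells as a dot, the list median without HDAC3 as a filled diamond and in controls as an open diamond, and the median of all genes as a dashed line. The medians of pDC-enriched genes are close in the 2 genotypes (3.38 and 3.25), and those of cDC1 (1.92 and -0.55), MHC class II (2.90 and 1.37) and mitosis genes (-0.06 and -1.77) are apart.

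Among the 165 genes with a larger gain in HDAC3-deficient cells, the smallest p-values in limma's interaction test belonged to *Plbd1*, *Lgals3*, *Id2*, *Cd22* and *Itgam*. *Cd22*, an inhibitory sialic acid receptor of B cells, measured 27.6 and 14.4 in HDAC3-deficient CDPs and 399 and 398 in HDAC3-deficient pDCs, against 60.4 and 39.0 and then 16.4 and 14.0 in controls, a difference of 5.93 (SE 0.48, adjusted p = 0.0139). *Lgals3*, which encodes galectin-3, measured 33.0 and 26.1 against 214 and 325 without HDAC3 and 268 and 211 against 65.3 and 51.3 in controls. In both genes the pDC libraries were above the CDP libraries without HDAC3 and below them in controls. *Itgam* is a gene of the pDC gate, and its values are given with those of the gate.

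Of the 12 smaller gains, those with the smallest p-values were *Tsc22d3*, *Lat*, *Slco3a1*, *Laptm4b* and *Myh13*. *Lat*, a T cell receptor adaptor gene, measured 48.2 and 60.3 in HDAC3-deficient CDPs and 3.76 and 4.28 in pDCs, and 18.0 and 11.8 against 12.7 and 13.6 in controls (difference -3.45, SE 0.41, adjusted p = 0.020). *Tsc22d3*, a glucocorticoid-induced gene, measured 268 and 260 against 729 and 779, and 49.6 and 42.2 against 513 and 507. *Lat* was called higher in CDPs without HDAC3 and was near equal in the control cell types, and *Tsc22d3* was higher in pDCs in both genotypes.

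Markers of other cells were read beside these results, and in bulk samples fewer cells of a type and less RNA per cell cannot be told apart. Erythroid genes had 6 of 12 members called higher in HDAC3-deficient pDCs, against 10.2% of all genes. Their levels summed to 360 and 429 in HDAC3-deficient CDPs, 2000 and 691 in HDAC3-deficient pDCs, and 897 and 1174 in control pDCs. Hemoglobin *Hbb-bs* was at 10.3 and 5.38 in CDPs and 382 and 94.4 in pDCs, whereas *Hbb-bt* was at 107 and 33.3 against 103 and 28.6 and *Car2* at 139 and 269 against 229 and 76.0, both overlapping. Leaving hemoglobin and ribosomal protein genes out of the totals gave 1279 genes called higher in pDCs and 482 higher in CDPs. Late neutrophil genes, 0 of 6 called, summed to 409 and 238 in CDPs and 55.3 and 116 in pDCs, and 5 of 9 measured were called higher in CDPs without CDP library 2 and 5 of 6 without HDAC3-deficient pDC library 2. Macrophage genes had 1 of 8 called higher in pDCs and summed to 926 and 877 in CDPs and 203 and 302 in pDCs, most of it *Lyz2* (899 and 835 against 175 and 265), with *C1qa* at 0.957 and 0 against 3.52 and 3.22 and *Adgre1* at 1.24 and 11.1 against 0.818 and 0.674. Platelet genes summed to 20.7 and 0.4 against 47.6 and 38.2, with 2 of 4 called higher in pDCs and *Pf4* at 0 and 0 against 7.52 and 3.25. B cell genes had 1 of 5 called each way, *Blnk* higher in pDCs (9.1 and 20.2 against 184 and 156) and *Rag2* higher in CDPs (6.8 and 6.5 against 0.24 and 0.13). The list summed to 1374 and 1019 against 475 and 428, most of it *Dntt* in the CDP libraries. *Cd79a* was at 0.567 and 0 against 2.77 and 7.29, *Cd79b* at 128 and 197 against 41.3 and 51.1, and *Ebf1* at or near 0 (0 and 0 against 0.066 and 0.147). T and NK genes had 1 of 3 called each way, *Klrd1* higher in pDCs (24.1 and 42.9 against 230 and 233) and *Lck* higher in CDPs (58.3 and 39.7 against 6.19 and 7.04). *Cd3e*, which failed the filter, was at 0 and 0 in CDPs and 0.177 and 0.485 in pDCs. The part of these cells in the differences above was not tested.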

How the data were processed

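RNA-seq libraries of CD115- CDPs and BM pDCs were used, 2 per genotype, grouped by the submitters' labels. For CDPs, the authors deposited FPKM per gene and library. The pDC table that the authors deposited holds FPKM and, beside it, expected counts. Bowtie2, RSEM and the genome build mm10 appear in the submitters' processing notes. Their versions and roles were not stated in the sources used here. TPM columns and 4 LMPP libraries were not used. The low values of the CDP FPKM table showed no step that would give whole reads, so the depth of the CDP libraries is unknown. The pDC expected counts summed to 1.81e+07 to 1.85e+07 and the FPKM of all libraries to 467172 to 577763.

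Rows were joined by NCBI Gene ID (14473 shared of 16821 CDP and 16896 pDC rows, 14467 matched to RefSeq). FPKM was rescaled to equal totals and analysed as log2(level + 0.5), a scale that understates the change of low genes. A gene passed at a level of at least 1 in both libraries of a group. Gains were compared between genotypes with limma 3.58.1 (group means of 8 libraries, eBayes with trend), and pDC genotypes with edgeR 4.0.16 (filterByExpr, TMM, glmQLFit, glmQLFTest) on expected counts rounded to whole numbers, in R 4.3.3. Two-sided p-values were adjusted by the Benjamini-Hochberg method across every gene tested, and genes with an adjusted p below 0.05 were called. Alternatives were other scalings, pseudocounts, filters, fold limits, array weights, DESeq2 1.42.0, a replicate block and leaving out each library, a lone library being assumed to vary like the others. The procedures were tested on simulated data.

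Members and the 29 gene lists, written from general knowledge, were chosen with earlier results of these data known. Named genes were the pDC factor and pDC-enriched lists, genes the study names for these cells, *Hdac3*, the 10 largest gaps in each direction among genes with a mean of at least 10, up to 4 members with the largest gap of each list in each direction, and up to 5 genes of each sign with the smallest interaction p. Other list members are named as examples and were chosen after their values were seen. A few genes that met this rule are not reported here. Coordinates and promoters come from RefSeq tables of GRCm38.p6.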

Additional observations from a re-analysis of the deposited data

Results flagged for a closer look

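Each gene here had a gain from CDP to pDC that differed between HDAC3-deficient and control cells in limma's interaction test over 8 libraries, with adjusted p from 0.0137 to 0.0492, and values are the gain without HDAC3 minus the gain in controls on the log2 scale. The causes were not tested. These calls hold little margin with 2 libraries a group, as set out with the test above. With a replicate block, 1 larger and 0 smaller gains were left over all genes.

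Among cDC, antigen presentation and migration genes, the difference was 6.68 for *Batf3*, 5.17 for *Zfp366*, 4.97 for *Id2*, 4.05 for *Cd83*, 2.99 for *Clec9a*, 3.14 for *Ccr7*, 2.02 for *H2-Aa*, 1.84 for *H2-Ab1*, 1.86 for *H2-Eb1* and 1.41 for *Ctsh*, which encodes cathepsin H. For myeloid and lymphoid surface or granule genes it was 5.93 for *Cd22*, 4.34 for *Itgam*, 2.77 for *Cx3cr1*, 1.55 for *Cd48*, 5.18 for *Lgals3* and 4.81 for *Plbd1*.

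The pDC-enriched genes differed by 3.55 for *Cd209a*, 3.14 for *Havcr1* and 2.10 for *Upb1*. Genes of the cell cycle differed by 1.76 for *Aurkb*, 1.59 for *Tpx2*, 2.25 for *Ccnd2* and 1.91 for *Cdkn1a*, and *Bex6* differed by 2.51.

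The gain was smaller without HDAC3 for 5 genes, by -3.45 for *Lat*, -3.19 for *Slco3a1*, -2.91 for *Myh13*, -2.59 for *Laptm4b* and -1.95 for *Tsc22d3*. *Myh13* was at 0.155 and 0.042 in HDAC3-deficient pDCs and 3.92 and 4.24 in control pDCs, with every CDP library at or near 0.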

How the results depend on the processing

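With a 2-fold rule, 2403 genes were higher in pDCs and 1878 higher in CDPs. Leaving out each library gave 1218 to 2363 genes higher in pDCs and 619 to 1207 higher in CDPs, 0 to 3749 larger and 0 to 2604 smaller gains, and 1440 to 3446 genes higher and 1310 to 3559 lower in HDAC3-deficient pDCs by edgeR. The number of smaller gains was 20 with FPKM as deposited, 47 after quantile normalization, 22 with a pseudocount of 1 and 24 without the trend, and the cause was not tested. No source pairs equal library numbers, and deviations of equal numbers correlated at r = 0.20 in CDPs and -0.15 in pDCs. A replicate block left 1 larger and 0 smaller gains (2089 genes at an unadjusted p under 0.05), and 2476 higher and 2585 lower genes by edgeR. DESeq2 called 2300 higher and 2132 lower. Of 112 named genes called between the cell types, 99 were called the same way in all 13 settings and 0 reversed, the exceptions including *Cd83*, *Ly6c2*, *Pik3ap1*, *Plbd1*, *Psmb2* and *Tlr3*. Many of these were named for a wide gap, and settings that loosen the rule or leave out a library cannot lose a call. Of all 1146 pDC calls, 815 were kept with FPKM as deposited, 903 after quantile normalization and 965 with a pseudocount of 1. Of the 549 CDP calls, 514, 514 and 465 were kept. The unknown depth of the CDP libraries limits low genes most, and a gene listed at 0 there gives no fold.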
